A study of Mus musculus with 9 samples.

Results

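A set of 10 genes that move fatty acids through a cell was followed in monocytes that had been kept with platelets. They were taken by gene symbol, and all 10 were found among the 55367 symbols of the count files: Lpl, Fabp4, Fabp5, Plin2, Pnpla2, Pparg, Cpt1a, Cpt2, Acadvl and Acadm. The 3 conditions compared had 3 mRNA libraries each, 9 in all: adult mouse monocytes with P7 platelets, the same kind of monocytes with adult platelets, and monocytes in a control buffer without platelets. In mouse work P7 commonly stands for postnatal day 7. Contact lasted 4 h, and the cells were washed before their mRNA was sequenced. The labels give no strain, sex, platelet dose or method of monocyte isolation, and do not say whether replicates came from separate animals or cultures. The p-values therefore measure the spread between these libraries, which may be technical.

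Fatty acids reach a monocyte or macrophage either free or inside lipoproteins, whose triglycerides are cut at the cell surface by lipoprotein lipase. Inside the cell they are carried by fatty acid binding proteins, stored as triglyceride in lipid droplets, released again by droplet lipases, or passed through the carnitine shuttle into mitochondria, where beta-oxidation shortens them to acetyl-CoA. The nuclear receptor PPAR gamma is activated by fatty acids and their derivatives and is known for inducing uptake and storage genes in macrophages.

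Total counts per library ranged from 29687341 to 35333463 with P7 platelets, from 30974956 to 34394579 with adult platelets and from 35314701 to 37065564 in control. Levels below are CPM, counts scaled to each library's size with TMM factors. Each fold change is a log2 value ± SE from edgeR's quasi-likelihood test across 13707 genes, and a gene was called where its p, adjusted after Benjamini and Hochberg, fell below 0.05. Monocyte markers such as Csf1r and Ly6c2 were abundant, and the 8 markers listed held 0.808 to 0.825% of counts with P7 platelets, 0.756 to 0.807% with adult platelets and 0.724 to 0.783% in control. The sum hides opposite changes: with P7 platelets over control 5 of the 8 were called higher and Ccr2 and Spn lower, and with adult platelets Cx3cr1 and Itgam were called higher and Nr4a1 and Spn lower. Platelet and erythroid RNA moved with the groups. The 13 platelet markers held 0.122 to 0.142% of counts with P7 platelets, 0.0731 to 0.134% with adult platelets and 0.00241 to 0.00272% in control, and all 13 were called higher in both platelet groups than in control. The 5 erythroid markers held 4.36 to 5.50%, 0.0481 to 0.180% and 0.000881 to 0.00117% in the same groups, and all 5 were called higher in each. Neither share overlapped between a platelet group and control, and p was 0.1 for each by an exact permutation test on both sides, the lowest value possible with 3 libraries a group. Markers of B and plasma cells held 0.00335 to 0.0179% of counts over the 9 libraries, those of T and NK cells 5.4e-05 to 0.000106% and those of neutrophils 0.0184 to 0.0381%. In such bulk libraries fewer cells of a type and less RNA per cell cannot be told apart. The part of platelet or erythroid RNA in the results below was not tested. A refit left out the 13 platelet markers, the 5 erythroid markers and the mitochondrial transcripts. It changed library totals and scaling but not the 10 genes' own counts, so it cannot show how much of those counts came from platelets. In that refit the numbers of calls among the 10 genes were the same in each comparison.

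Against all genes, the number of the 10 that changed with P7 platelets was near the share of all genes called. Between P7 platelets and control 6 of the 10 were called, beside 59.2% of all genes tested, 3 of them higher (29.9% of all genes) and 3 lower (29.3%). The values of 7 of the 10 did not overlap between these groups, beside 69.1% of all genes. Between adult platelets and control 3 were called (26.4%), 1 higher (14.3%) and 2 lower (12.0%), and 7 did not overlap (42.7%). Between P7 and adult platelets 8 were called (39.6%), 4 higher (19.7%) and 4 lower (19.8%), and 7 did not overlap (49.0%). The medians of the 10 log2 fold changes were 0.05, -0.20 and -0.04 in these comparisons, beside medians of -0.01, -0.0022 and -0.02 over all genes. Upper-quartile scaling moved the median of all genes between P7 platelets and control to -0.12 and the split to 3279 higher and 5012 lower, against 4097 and 4014 with TMM, and between P7 and adult platelets to 2106 and 3556, against 2706 and 2718 with TMM. Under that scaling the 10 genes kept the same counts in both comparisons. Between adult platelets and control it gave 1620 higher and 1945 lower, against 1966 and 1651 with TMM, and 4 of the 10 were called in place of 3, with Lpl as a further lower gene (adjusted p = 0.0473).

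**Figure D1:**
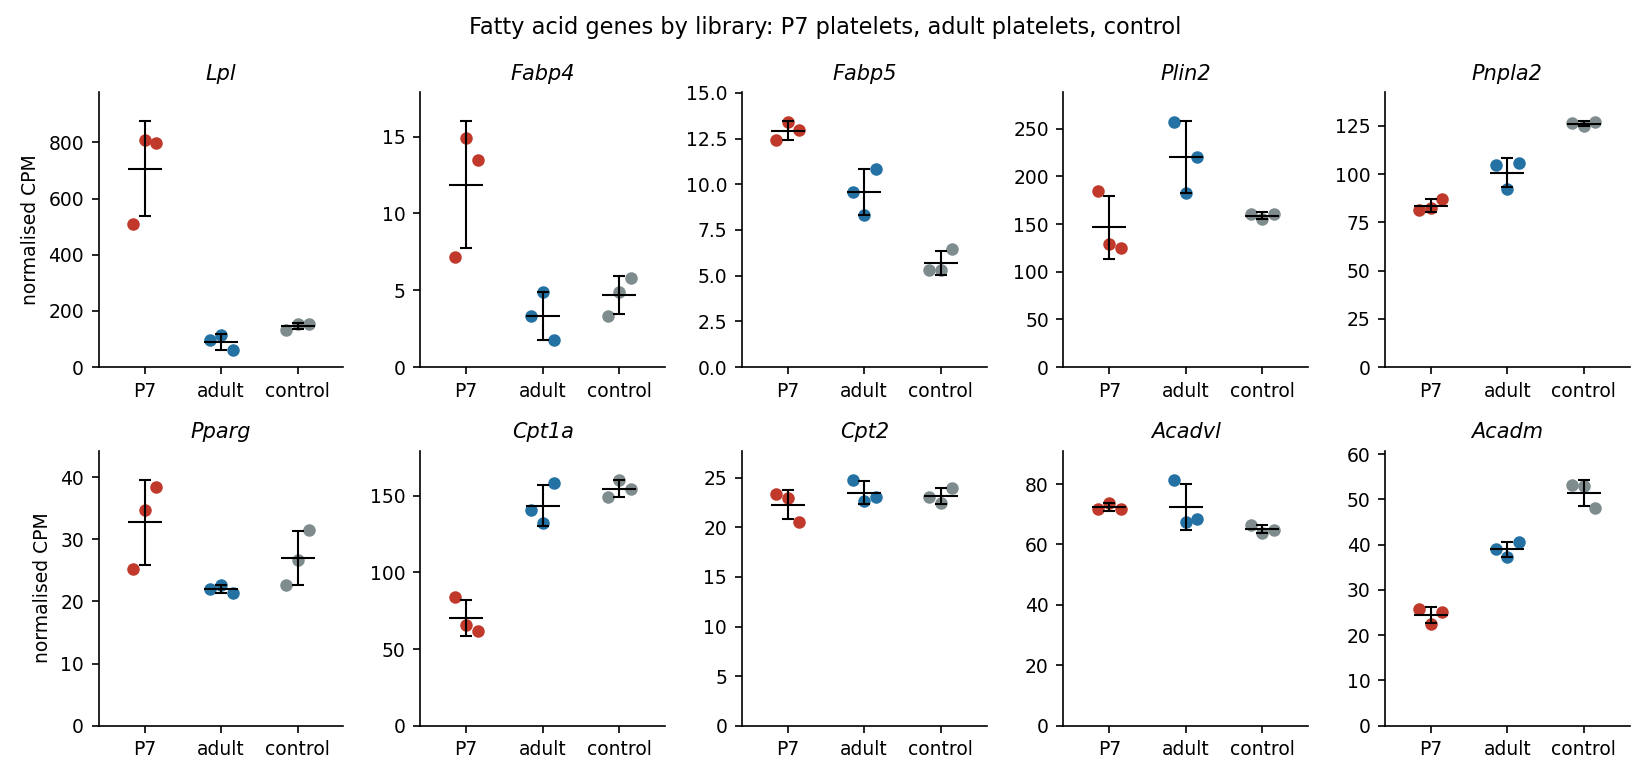
Normalised CPM (vertical axis, from 0) of the 10 genes in each library with P7 platelets, with adult platelets and in control. Points are the 3 libraries of a group, replicates 1 to 3 from left to right, and the bar and whiskers are the mean ± SD. Lpl lies between 511 and 809.6 CPM in the P7 platelet libraries and between 60.2 and 155 CPM in the other 6, whereas Acadm averages 24.4 CPM with P7 platelets, 38.9 with adult platelets and 51.4 in control.

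The uptake and binding genes Lpl, Fabp4 and Fabp5 were higher with P7 platelets than with adult platelets or in control. Lpl encodes lipoprotein lipase, the enzyme that releases fatty acids from circulating triglyceride. It had 511, 809.6 and 797 CPM with P7 platelets, 97.1, 115 and 60.2 CPM with adult platelets, and 132, 152 and 155 CPM in control. The 3 groups did not overlap, and P7 platelet replicate 1 was the lowest of its group. Lpl rose 4.82-fold with P7 platelets over control (log2 fold change 2.27 ± 0.24, adjusted p = 4.74e-05), and 531 of the 13707 genes tested (3.87%) had a larger value. Its mean of 706 ± 169 CPM with P7 platelets (SD, n = 3) was exceeded by 178 genes. Between P7 and adult platelets the difference was 7.77-fold (2.96 ± 0.25, adjusted p = 5.97e-05), a value that 122 genes (0.890%) exceeded. With adult platelets Lpl averaged 90.9 ± 28.1 CPM, against 147 ± 12.4 CPM in control (SD, n = 3 each), and the log2 fold change of -0.69 ± 0.24 did not pass the test (adjusted p = 0.0592). That last value lay near the threshold and was called by the DESeq2 Wald test (adjusted p = 0.00917) and limma-voom (adjusted p = 0.0446), with adjusted p between 0.0324 and 0.147 when 1 library was left out.

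Fabp4 and Fabp5 encode small cytosolic proteins that carry fatty acids, known from adipocytes and macrophages for the first and from skin and macrophages for the second. Fabp4 was a low transcript, with 7.19, 14.9 and 13.5 CPM with P7 platelets, 3.33, 4.86 and 1.78 CPM with adult platelets, and 3.35, 4.88 and 5.83 CPM in control. Like Lpl, it was lowest in replicate 1 among the P7 platelet libraries, yet each of these lay above every other library. It rose 2.53-fold with P7 platelets over control (1.34 ± 0.37, adjusted p = 0.0110) and 3.56-fold over adult platelets (1.83 ± 0.38, adjusted p = 0.00454). With adult platelets the values overlapped those of control (-0.49 ± 0.38, adjusted p = 0.376). Fabp5 had 12.4, 13.4 and 12.9 CPM with P7 platelets, 9.56, 8.30 and 10.8 CPM with adult platelets, and 5.30, 5.30 and 6.43 CPM in control. It was the 1 gene of the 10 called higher with both kinds of platelets, 2.27-fold with P7 platelets (1.19 ± 0.12, adjusted p = 2.68e-05) and 1.68-fold with adult platelets (0.75 ± 0.12, adjusted p = 0.00189). Between P7 and adult platelets it differed by 0.44 ± 0.11 (adjusted p = 0.0134), and leaving out P7 platelet replicate 2 ended the call (adjusted p = 0.0507).

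Fabp4 and Lpl are also abundant in adipocytes, and Fabp4 in capillary endothelium, so markers of those cells were read in the same libraries. The 7 adipocyte markers were at or near 0: Cidec had no count in any library, Lep and Plin1 at most 1, and the list held 2.72e-05 to 4.25e-05% of counts with P7 platelets, 3.87e-05 to 5.30e-05% with adult platelets and 2.97e-05 to 4.67e-05% in control. Of 7 endothelial markers, Gpihbp1, the capillary anchor of lipoprotein lipase, and Cldn5 had no count in any library, and the list held 0.00350 to 0.00404%, 0.00366 to 0.00518% and 0.00315 to 0.00368% in the same groups. Most of that sum was Pecam1, which monocytes also express. Kdr, a VEGF receptor gene, had 81 to 132 counts with P7 platelets, 15 to 24 with adult platelets and 5 to 10 in control. Cdh5 had 16 to 25, 10 to 33 and 7 to 15 counts in the same groups. Of the 3 endothelial markers tested, 2 were called higher with P7 platelets and 1 with adult platelets than in control. Between P7 and adult platelets 1 was called higher, and none was called lower in any comparison. Of 8 tissue macrophage markers, Vsig4 had no count, and the 7 tested were all called higher with P7 platelets than in control. Adgre1, the F4/80 gene, made up nearly all of the sum. It had 10294 to 12631 counts with P7 platelets, 5290 to 7287 with adult platelets and 9688 to 10676 in control, and was the 1 marker called lower with adult platelets, where C1qa, C1qb and C1qc were called higher. Together the 8 held 0.0352 to 0.0371% of counts with P7 platelets, 0.0171 to 0.0219% with adult platelets and 0.0278 to 0.0297% in control. The part of these cells in the rise of Lpl and Fabp4 was not tested.

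Of the storage genes, Plin2 was called between the platelet groups and Pnpla2 in each comparison. Plin2 encodes perilipin 2, the main coat protein of lipid droplets in macrophages. It had 185, 129 and 125 CPM with P7 platelets, 258, 183 and 220.5 CPM with adult platelets, and 161, 155 and 161 CPM in control. The adult platelet libraries all lay above control, while P7 platelet replicate 1 lay above control and replicates 2 and 3 below it. With adult platelets the log2 fold change over control was 0.47 ± 0.16, which missed the threshold (adjusted p = 0.0545), and it passed with DESeq2 (adjusted p = 0.0140) and in the fit of the adult platelet and control groups alone (adjusted p = 0.0282). With P7 platelets the value was -0.12 ± 0.16 (adjusted p = 0.556). Plin2 was called lower with P7 than with adult platelets (-0.59 ± 0.16, adjusted p = 0.0161), although P7 platelet replicate 1 and adult platelet replicate 2 overlapped. That call was lost without P7 platelet replicate 2 (adjusted p = 0.0667), P7 platelet replicate 3 (adjusted p = 0.0654) or adult platelet replicate 1 (adjusted p = 0.0550).

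Pnpla2 encodes adipose triglyceride lipase, which starts the breakdown of stored triglyceride. It had 81.6, 82.2 and 87.3 CPM with P7 platelets, 104, 92.2 and 106 CPM with adult platelets, and 126, 125 and 127 CPM in control. No 2 groups overlapped. The gene fell by 0.59 ± 0.06 on the log2 scale with P7 platelets (adjusted p = 3.19e-05) and by 0.32 ± 0.06 with adult platelets (adjusted p = 0.00429), and it was lower with P7 than with adult platelets (-0.27 ± 0.06, adjusted p = 0.00637). Against control these are levels of 0.664 times with P7 and 0.799 times with adult platelets. When a change of at least 1.2-fold was demanded, by testing against that fold, the call against control held with P7 platelets (adjusted p = 0.000297). It was lost with adult platelets (adjusted p = 0.317) and between P7 and adult platelets (adjusted p = 0.568).

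Pparg, the gene of PPAR gamma, was not called against control with either kind of platelet. It had 25.1, 34.7 and 38.3 CPM with P7 platelets, 22.0, 22.6 and 21.3 CPM with adult platelets, and 22.7, 26.7 and 31.4 CPM in control. The P7 platelet libraries overlapped control, and the adult platelet libraries all lay below it, the nearest by less than 1 CPM. Its log2 fold change over control was 0.28 ± 0.15 with P7 platelets (adjusted p = 0.146) and -0.29 ± 0.16 with adult platelets (adjusted p = 0.197). The first value passed without P7 platelet replicate 1 (0.44, adjusted p = 0.0128). Pparg was higher with P7 than with adult platelets (0.57 ± 0.16, adjusted p = 0.0167), and this was lost without P7 platelet replicate 2 (adjusted p = 0.0593), P7 platelet replicate 3 (adjusted p = 0.0693) or adult platelet replicate 3 (adjusted p = 0.0517). Among the P7 platelet libraries replicate 1 was the lowest for Lpl, Fabp4, Fabp5, Pnpla2 and Pparg and the highest for Plin2, Cpt1a, Cpt2 and Acadm, and it lay between the others for Acadvl.

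Replicate 1 of the P7 platelet group also had a high count of Igkc, the constant part of the kappa light chain made by B-lineage cells. Igkc stood at 409.5 to 772 CPM of the total in 4 libraries, replicate 1 of every group and adult platelet replicate 3, and at 123 to 172 CPM in the other 5 libraries. The labels name no batch that matches this split. Within the libraries of high Igkc the log2 ratio of Lpl between P7 platelets (1 library) and control (1 library) was 1.95, and within those of low Igkc it was 2.39 (2 libraries each). For Fabp4 the same ratios were 1.10 and 1.41, for Cpt1a -0.83 and -1.30, and for Pparg 0.15 and 0.33. Between P7 and adult platelets the Cpt1a ratios were -0.84 and -1.05. Plin2 changed sign between P7 platelets and control, at 0.20 within the high and -0.31 within the low libraries. With a term for this split in the model, Pparg passed the test between P7 platelets and control (0.27, adjusted p = 0.0381).

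Oxidation genes divided into a pair that fell with P7 platelets and a pair that was not called. Cpt1a encodes the carnitine palmitoyltransferase of the outer mitochondrial membrane, the rate-limiting step of fatty acid entry. It had 83.7, 65.6 and 61.8 CPM with P7 platelets, 140.5, 132 and 158 CPM with adult platelets, and 149, 160.3 and 154 CPM in control. The P7 platelet libraries lay below all others, and the adult platelet libraries overlapped control. Cpt1a fell with P7 platelets to 0.455 times its control level (-1.14 ± 0.11, adjusted p = 2.80e-05) and was lower than with adult platelets (-1.03 ± 0.11, adjusted p = 0.000204), while adult platelets gave -0.11 ± 0.11 against control (adjusted p = 0.513). Of the genes tested, 5.72% had a smaller value than Cpt1a between P7 platelets and control.

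Acadm encodes medium-chain acyl-CoA dehydrogenase, a first-step enzyme of beta-oxidation for medium-length chains. It had 25.7, 22.5 and 25.1 CPM with P7 platelets, 39.0, 37.2 and 40.7 CPM with adult platelets, and 53.1, 53.0 and 48.2 CPM in control. The 3 groups were fully separated, with adult platelets between P7 platelets and control. Acadm fell to 0.475 times its control level with P7 platelets (-1.07 ± 0.07, adjusted p = 2.39e-06) and to 0.757 times with adult platelets (-0.40 ± 0.07, adjusted p = 0.00252), and it was lower with P7 than with adult platelets (-0.67 ± 0.07, adjusted p = 0.000144). Tested against a fold of 1.2, the fall with adult platelets was not called (adjusted p = 0.0820).

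Cpt2 encodes the inner-membrane partner of Cpt1a, which rebuilds acyl-CoA on the matrix side. Its 9 libraries lay between 20.6 and 24.8 CPM, and its log2 fold changes of -0.06 ± 0.06 (P7 platelets over control, adjusted p = 0.493), 0.02 ± 0.06 (adult platelets over control, adjusted p = 0.835) and -0.08 ± 0.06 (P7 over adult platelets, adjusted p = 0.386) did not pass. Acadvl encodes very long-chain acyl-CoA dehydrogenase, which takes the first step for longer chains. It averaged 72.4 ± 1.23 CPM with P7 platelets, 72.4 ± 7.76 with adult platelets and 65.1 ± 1.34 in control (SD, n = 3 each). Both platelet groups lay above control in every library, and neither difference of 0.15 ± 0.07 was called (adjusted p = 0.0895 with P7 and adjusted p = 0.140 with adult platelets). The P7 value passed in the fit of those 2 groups alone (adjusted p = 0.00910) and without adult platelet replicate 1 (adjusted p = 0.00767). In the annotation, 1151 exonic bases of Acadvl overlap exons of Dvl2 on the opposite strand, and since the strand setting of the counting is not given in the sources used here, reads of the pair may not be separated.

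**Figure D2:**
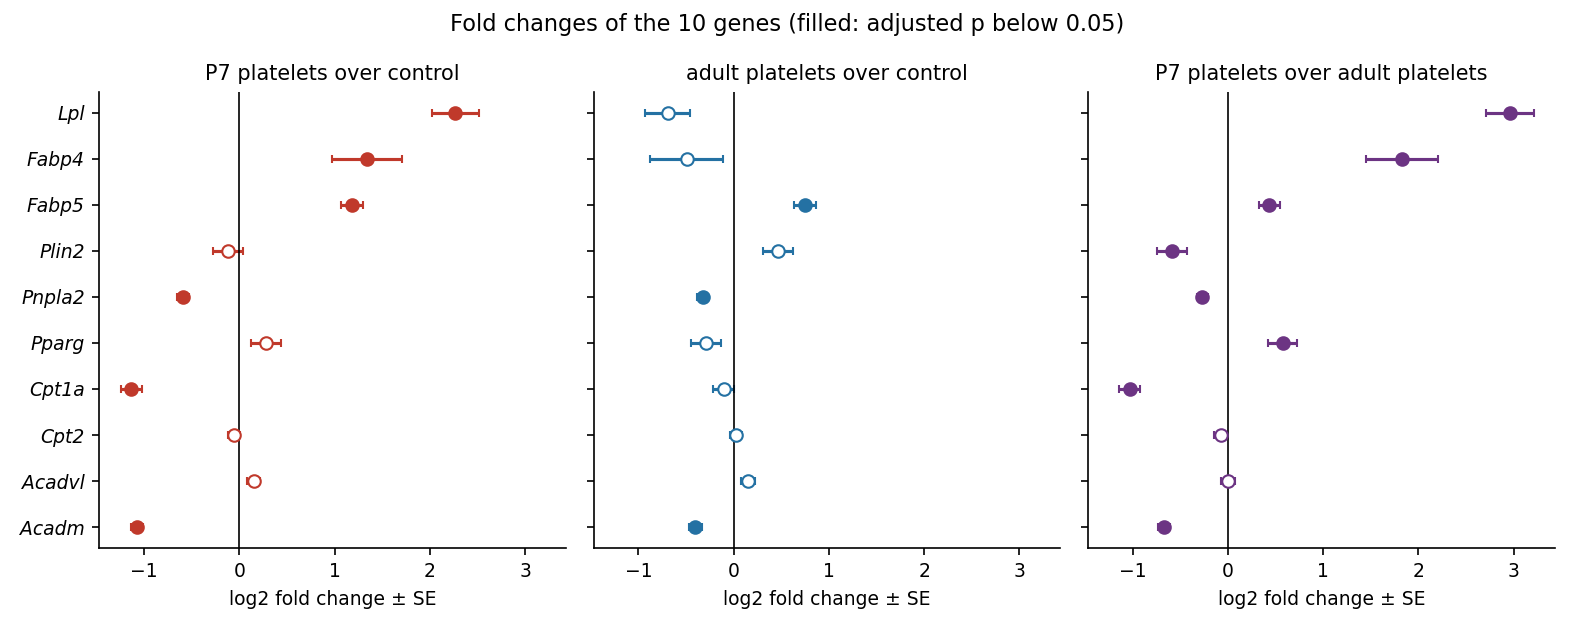
Log2 fold change ± SE (horizontal axis) of the 10 genes, in rows, for P7 platelets over control, adult platelets over control and P7 over adult platelets, from left to right. Filled points passed the test at an adjusted p below 0.05. Lpl is at 2.27 in the left panel and -0.69 in the middle one, and Cpt1a is at -1.14 and -0.11.

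The regions before the starts of Plin2, Cpt1a and Acadm are shown because these genes moved differently, Cpt1a mainly with P7 platelets, Acadm with both kinds and Plin2 apart between them. Each is 250 bases long and ends at the base before the gene's start in RefSeq (GRCm38.p6), read 5′ to 3′ on the gene's strand. Capitals mark AGGTCA or its reverse complement TGACCT, the half-site that PPARs and other nuclear receptors read as a pair. Plin2 lies on the minus strand at chr4:86670060-86670309, Cpt1a on the plus strand at chr19:3323051-3323300 and Acadm on the minus strand at chr3:153944644-153944893.
Plin2: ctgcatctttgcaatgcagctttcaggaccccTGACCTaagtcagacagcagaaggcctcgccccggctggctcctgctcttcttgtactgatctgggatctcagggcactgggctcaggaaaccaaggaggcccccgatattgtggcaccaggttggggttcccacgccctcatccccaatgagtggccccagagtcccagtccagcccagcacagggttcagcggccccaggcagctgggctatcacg
Cpt1a: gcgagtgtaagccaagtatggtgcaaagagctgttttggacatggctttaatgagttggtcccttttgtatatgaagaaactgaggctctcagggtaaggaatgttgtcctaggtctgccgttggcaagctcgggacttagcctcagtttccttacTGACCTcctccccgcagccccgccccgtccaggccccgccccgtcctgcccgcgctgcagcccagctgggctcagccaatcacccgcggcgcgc
Acadm: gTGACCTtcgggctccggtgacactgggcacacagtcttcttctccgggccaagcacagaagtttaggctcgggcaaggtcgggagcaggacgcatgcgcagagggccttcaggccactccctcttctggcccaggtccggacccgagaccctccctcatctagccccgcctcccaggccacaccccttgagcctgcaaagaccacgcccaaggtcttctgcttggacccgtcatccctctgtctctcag
The half-site begins at -218 in Plin2, -94 in Cpt1a and -249 in Acadm, counted from -1 at the base before the start. It was found on either strand in 14.0% of all 32851 such windows and in 6 of the 9 windows of the 7 genes with an entry. By gene, 5 of the 7 had it in a window, Pparg, which has more than 1 window, and Acadvl besides those shown. Pnpla2 and Cpt2 lacked it. The direct repeat AGGTCANAGGTCA, which contains the half-site, was in none of the 9 windows and in 0.0335% of all. The Cpt1a window lies in the first intron of another annotated transcript of the gene. A match is a string of letters and not a shown binding site.

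On the reference annotation GENCODE M21 (GRCm38), Lpl lies on chromosome 8 at 68880491 to 68907448, Fabp4 and Fabp5 on chromosome 3 at 10204088 to 10208576 and 10012548 to 10016607, Pnpla2 on chromosome 7 at 141455198 to 141460743, Pparg on chromosome 6 at 115360951 to 115490399, Cpt2 on chromosome 4 at 107903981 to 107923610 and Acadvl on chromosome 11 at 70010183 to 70015411. Levels per kilobase depend on the length taken. The union of all annotated exons reaches 4489 bases for Fabp4, its whole gene span, and 3567 of 4060 bases for Fabp5, whereas their longest spliced coding transcripts have 896 and 987 bases. Per kilobase of the exon union, Lpl had the highest level of the 10 with P7 platelets, at 67.4 ± 16.1 CPM per kb, and overlapped the next gene, Plin2, at 41.8 ± 9.50. Per kilobase of the longest coding transcript, a length chosen after the data were seen, Lpl was again first, at 172 ± 41.0 CPM per kb, and Plin2 next at 77.7 ± 17.7, without overlap. With adult platelets and in control Plin2 came first by either length, at 62.7 ± 10.7 and 45.3 ± 0.934 CPM per kb of the exon union. Lpl came at rank 7 with adult platelets and rank 5 in control by the exon union, and at rank 5 and rank 4 by the coding transcript. Fabp4 with P7 platelets stood at rank 10 by the exon union (2.64 ± 0.916 CPM per kb) and at rank 7 by the coding transcript (13.2 ± 4.59), so its place among the 10 is not fixed by these data (SD, n = 3 for each level).

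The pathway around these genes was read from 112 further genes in 7 lists, of which 82 had enough counts to be tested. Between P7 platelets and control 26 rose and 36 fell (median log2 fold change -0.11), which is 31.7 and 43.9% of those tested, beside 29.9 and 29.3% of all genes. Between adult platelets and control 7 rose and 18 fell (median -0.09), or 8.54 and 22.0%, beside 14.3 and 12.0% of all genes. Between P7 and adult platelets 19 were higher and 28 lower (median -0.10), or 23.2 and 34.1%, beside 19.7 and 19.8% of all genes. The shares of all genes are also the background for the single lists that follow. The 30 genes not tested included Ppara, Ppargc1a and Pdk4, with at most 3 counts in any library, and the droplet proteins Plin1, Plin4, Plin5 and Cidec, with at most 1.

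**Figure D3:**
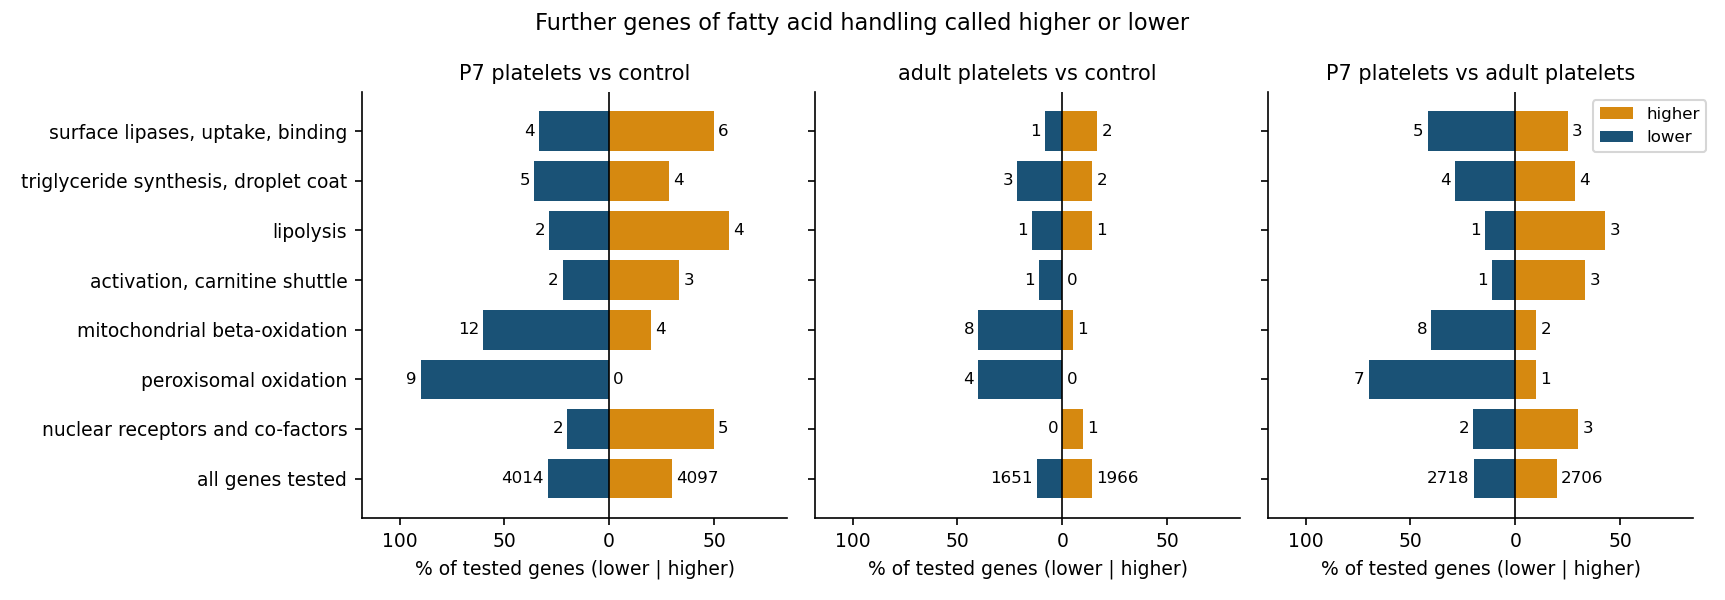
Share of the tested genes of each list called higher (right of 0) or lower (left of 0) at an adjusted p below 0.05, in percent, with the number of genes at the end of each bar and all genes tested in the bottom row. With P7 platelets 9 of 10 peroxisomal genes and 12 of 20 mitochondrial beta-oxidation genes are lower than in control.

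Oxidation genes outside the 10 were mostly lower with P7 platelets than in control. Of 20 mitochondrial beta-oxidation genes tested, 12 fell and 4 rose with P7 platelets over control (median -0.50), and 8 fell and 1 rose with adult platelets (median -0.18). Acaa2, the thiolase of the last step, had 12.3 ± 0.457 CPM with P7 platelets, 18.5 ± 0.348 with adult platelets and 25.8 ± 1.48 in control. It fell by 1.07 ± 0.06 with P7 platelets (adjusted p = 1.54e-06) and by 0.48 ± 0.06 with adult platelets (adjusted p = 0.000562). Acad11, an acyl-CoA dehydrogenase gene, fell by 0.34 ± 0.06 with adult platelets (adjusted p = 0.00456, and adjusted p = 0.264 against a fold of 1.2). With P7 platelets its log2 fold change was -0.73 ± 0.06 (adjusted p = 1.40e-05). The risers with P7 platelets were Hadha, Acadl, Acad9 and Etfa, at 0.14 to 0.30. Etfa, which passes electrons on from the dehydrogenases, was the 1 riser with adult platelets (0.16 ± 0.05, adjusted p = 0.0417). Leaving out any 1 of 8 libraries ended that call (adjusted p = 0.0517 to 0.125), as did testing against a fold of 1.2 (adjusted p = 1). It was also lost with upper-quartile scaling (adjusted p = 0.0763), with no filter (adjusted p = 0.112) and with the adult platelet and control groups alone (adjusted p = 0.0746).

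Peroxisomes shorten very long chains before mitochondria finish them. Of 10 peroxisomal genes tested, 9 fell with P7 platelets over control and none rose (median -0.59), and 4 fell with adult platelets (median -0.25). Crot, the octanoyltransferase that exports shortened chains as carnitine esters, fell by 1.55 ± 0.07 with P7 platelets (adjusted p = 7.31e-07) and by 0.71 ± 0.07 with adult platelets (adjusted p = 0.000181). Acox3, an acyl-CoA oxidase gene, had 74.9 ± 5.96 CPM with P7 platelets, 137 ± 5.82 with adult platelets and 169 ± 2.68 in control, and fell by 1.17 ± 0.06 with P7 platelets (adjusted p = 1.25e-06). Abcd2, a transporter of very long-chain fatty acids, had 36.1 ± 5.84 CPM with P7 platelets, 112 ± 1.86 with adult platelets and 115 ± 11.6 in control. It fell by 1.68 ± 0.11 with P7 platelets over control (adjusted p = 3.18e-06) and was lower with P7 than with adult platelets (-1.63 ± 0.11, adjusted p = 2.05e-05). Hsd17b4, the bifunctional enzyme, fell by 0.21 ± 0.04 with adult platelets (adjusted p = 0.00536, and adjusted p = 1 against a fold of 1.2). With P7 platelets its log2 fold change was -0.42 ± 0.04 (adjusted p = 2.31e-05).

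**Figure D4:**
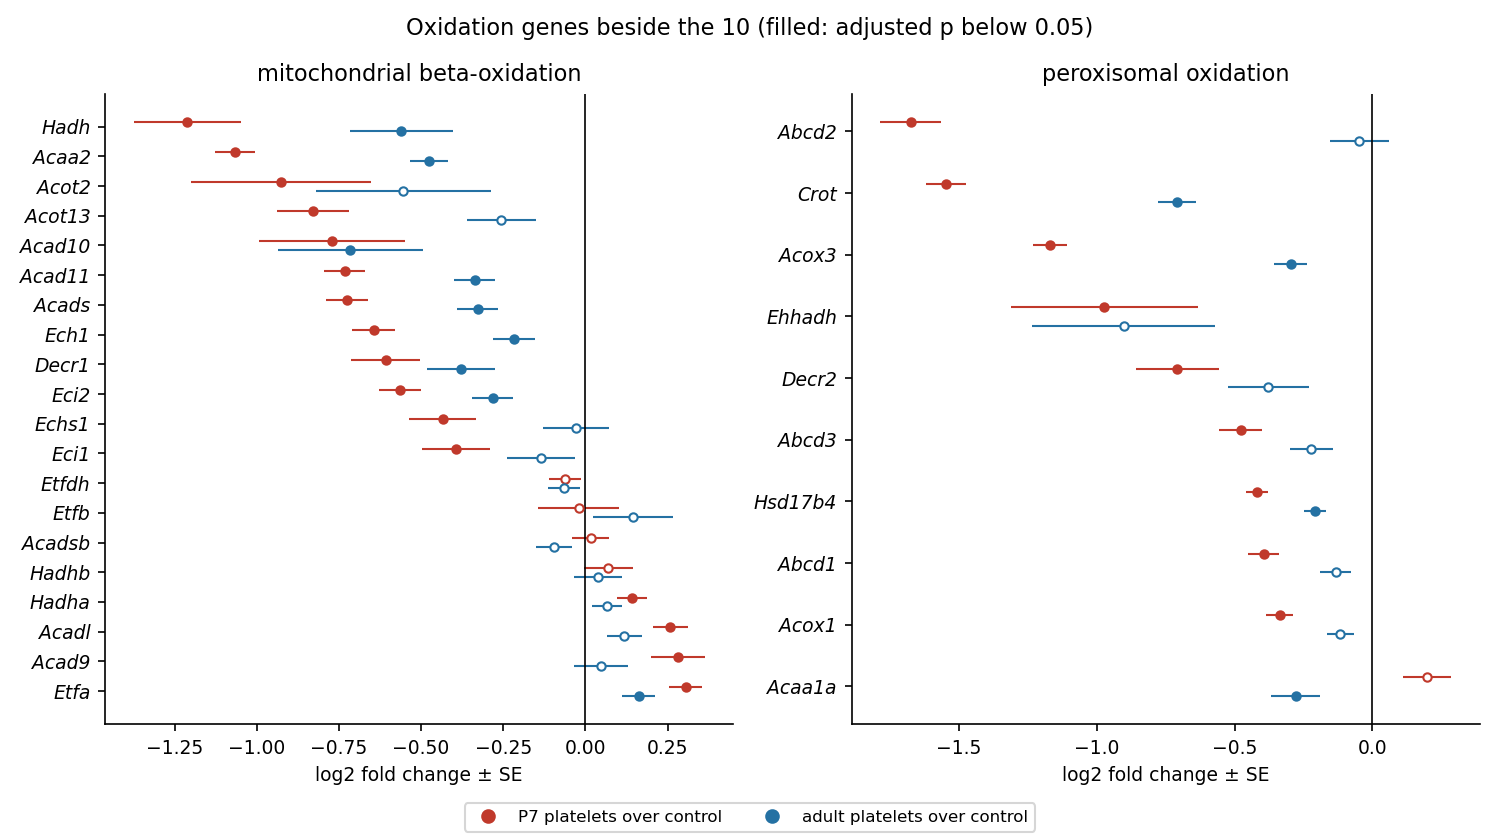
Log2 fold change ± SE (horizontal axis) over control of the tested mitochondrial (left) and peroxisomal (right) oxidation genes outside the 10, with P7 platelets in red and adult platelets in blue. Filled points passed the test at an adjusted p below 0.05. Hadh, Acaa2, Abcd2, Acox3 and Crot lie beyond -1 with P7 platelets, while Abcd2 is at -0.05 with adult platelets, where it was not called.

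Of 14 triglyceride synthesis and droplet genes tested, 4 rose and 5 fell with P7 platelets, which is 28.6 and 35.7%, beside 29.9 and 29.3% of all genes. With adult platelets 2 rose and 3 fell, 14.3 and 21.4%, beside 14.3 and 12.0%, so that most of these shares were near those of all genes. Dgat2, an acyltransferase of the last step, had 124 ± 18.0 CPM with P7 platelets, 79.4 ± 15.3 with adult platelets and 34.8 ± 5.43 in control, and rose by 1.83 ± 0.17 (adjusted p = 1.82e-05) with P7 and by 1.19 ± 0.16 (adjusted p = 0.00108) with adult platelets. Gpat3, a glycerol-3-phosphate acyltransferase gene, rose by 2.21 ± 0.26 with adult platelets (adjusted p = 0.000492), where its libraries had 20.3, 22.5 and 41.8 CPM. With P7 platelets it rose by 1.11 ± 0.27 (adjusted p = 0.00565). Lpin1, a phosphatidate phosphatase that also acts as a nuclear co-regulator, had 9.09 ± 0.367 CPM with P7 platelets, 20.4 ± 3.79 with adult platelets and 45.8 ± 7.16 in control. It fell by 2.33 ± 0.15 with P7 (adjusted p = 3.05e-06) and by 1.17 ± 0.14 with adult platelets (adjusted p = 0.000552).

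Among 7 lipolysis genes tested, 4 rose and 2 fell with P7 platelets, 57.1 and 28.6%, beside 29.9 and 29.3% of all genes. With adult platelets 1 rose and 1 fell, 14.3% each, beside 14.3 and 12.0%. The 2 that fell with P7 platelets were Daglb (-1.38 ± 0.15, adjusted p = 5.46e-05) and G0s2 (-1.27 ± 0.22, adjusted p = 0.000953). G0s2 was also the 1 that fell with adult platelets (-0.94 ± 0.22, adjusted p = 0.0129). Abhd5, the co-activator of the lipase that Pnpla2 encodes, rose by 0.51 ± 0.06 with P7 platelets (adjusted p = 0.000112) and by 0.28 ± 0.06 with adult platelets (adjusted p = 0.0115, with adjusted p = 0.0505 without control replicate 3 and adjusted p = 0.650 against a fold of 1.2), opposite in direction to Pnpla2. Lipa, the lysosomal acid lipase, was named after its values were seen and rose by 0.83 ± 0.19 with P7 platelets (adjusted p = 0.00438). In the surface and binding list 6 of 12 rose and 4 fell with P7 platelets, and 2 rose and 1 fell with adult platelets. Most of the risers were low transcripts. Lipg, Slc27a2, Lipc and Fabp3 averaged 1.21, 0.195, 0.625 and 0.992 CPM with P7 platelets, Dbi 76.7 CPM. The 4 that fell, Fabp7, Lmf1, Slc27a1 and Slc27a3, averaged 1.21, 9.15, 2.18 and 0.843 CPM there. Slc27a2 and Lipc, the 2 risers with adult platelets, averaged 0.848 and 0.767 CPM in that group. Cd36, the fatty acid translocase, was likewise named after its values were seen. It averaged 292 ± 17.5 CPM with P7 platelets, 199 ± 53.1 with adult platelets and 183 ± 25.8 in control. Over control it rose by 0.68 ± 0.17 with P7 platelets (adjusted p = 0.00755) and was not called with adult platelets (0.12 ± 0.17, adjusted p = 0.636). Between P7 and adult platelets Cd36 differed by 0.55 ± 0.17 (adjusted p = 0.0296). That call was lost when tested against a fold of 1.2 (adjusted p = 0.116) and without some single libraries (adjusted p up to 0.0738).

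Of 9 activation and carnitine shuttle genes tested, 3 rose and 2 fell with P7 platelets, and 1 fell with adult platelets. Acsl4, an acyl-CoA synthetase with a preference for arachidonate, averaged 291 ± 34.1 CPM with P7 platelets, 143 ± 21.5 with adult platelets and 143 ± 13.6 in control, and rose by 1.03 ± 0.12 with P7 platelets over control (adjusted p = 9.02e-05). Acsl1 was higher with P7 than with adult platelets (0.54 ± 0.05, adjusted p = 0.000143). Of 10 nuclear receptor, co-factor and uncoupling protein genes, 5 rose and 2 fell with P7 platelets, and 1 rose with adult platelets. Nr1h3, which encodes the sterol-activated receptor LXR alpha, rose by 1.31 ± 0.09 with P7 (adjusted p = 3.93e-06) and by 0.76 ± 0.09 with adult platelets (adjusted p = 0.000490). Rxra, the partner with which PPARs and LXRs pair on DNA, was lower with P7 than with adult platelets (-1.09 ± 0.11, adjusted p = 0.000167). Ppard was higher with P7 than with adult platelets (0.28 ± 0.04, adjusted p = 0.000738), a call lost when tested against a fold of 1.2 (adjusted p = 0.372). Ucp2, a mitochondrial carrier gene, rose by 0.63 ± 0.07 with P7 platelets over control (adjusted p = 6.04e-05).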

How the data were processed

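The authors deposited raw counts of reads per gene symbol, 1 file per library, not normalised. Tools listed in the submitters' processing notes, with no role or order, are Salmon 1.3.0, Subread 2.0.1, featureCounts, STAR 2.7.6a and fastp 0.20.1. The build, the annotation and how strand was counted: not given in the sources used here. Libraries were poly(A)-selected and stranded, per the labels' protocols. Of 55367 symbols, 53292 matched GENCODE M21 gene names.

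Counts were fitted with edgeR 4.0.16 (R 4.3.3) by quasi-likelihood, TMM and filterByExpr by group (minimum count 10) on all 9 libraries, 1 mean per group, which left 13707 genes. TMM factors ranged from 0.882 to 1.10. Named pathway genes were up to 5 higher and 5 lower called genes per comparison by smallest adjusted p, with a mean log2 CPM of at least 0. For each of the 10 genes the 3 most alike genes by Pearson correlation were listed among those with a mean log2 CPM of at least 2. Members and lists were chosen with earlier results of these data known. Shares of marker counts are percent of the library total. Alternatives were other scalings (DESeq2 1.42.0 size factors, upper quartile), filters, the DESeq2 Wald test, limma-voom (limma 3.58.1), glmTreat, a replicate block and 2 groups alone. Further alternatives were removal of the platelet and erythroid markers and mitochondrial transcripts, a term for Igkc above 300 CPM and leaving out each library. For levels per kb, the longest coding transcript was taken in place of all exons. Same-numbered libraries of P7 platelets and control deviated from their group means with r = 0.576, 0.209 and 0.335. The highest r with a control library of another number was -0.389, 0.205 and 0.307, so that replicate 1 alone stood clearly apart. The labels do not explain this, and the block changed no call among the 10 between P7 platelets and control.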

Additional observations from a re-analysis of the deposited data

How the results depend on the processing

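None of the 17 calls among the 30 results on the 10 genes changed sign in 20 alternatives, and 11 held in all of them. Of the 6 lost at least once, 3 were lost when tested against a fold of 1.2 and nowhere else, and Fabp5, Plin2 and Pparg between P7 and adult platelets were also lost without single libraries. Calls at a fold of 1.2 are fewer by construction. There the genes called were 5185 (2577 higher, 2608 lower) between P7 platelets and control, 1120 (649 and 471) between adult platelets and control and 2552 (1346 and 1206) between P7 and adult platelets. Of the 10 genes, 1 was called with adult platelets over control, with 0 lower, and 4 between the platelet groups (2 higher, 2 lower). Of the pathway lists 14 were higher with P7 platelets, 9 were called with adult platelets (4 lower) and 27 between the platelet groups (9 higher, 18 lower).

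With adult platelets over control, 5 of the 10 were called, 2 of them higher, with no filter, with the DESeq2 Wald test, with the replicate block and with the Igkc term, since Lpl and Plin2 then passed. With a mean of at least 50 counts and with the 2 groups alone 2 were higher. The cause was not tested. The numbers paired adult platelet libraries with others only in part. Same-numbered libraries of adult platelets and control had r = 0.56, 0.35 and -0.08, against at most -0.38, 0.42 and 0.05 with another number. Those of P7 and adult platelets had r = 0.49, 0.28 and -0.08, against at most 0.10, -0.05 and 0.43. The block gave 8565, 4228 and 5965 calls in the 3 comparisons and changed no call among the 10 other than those of Lpl and Plin2. Leaving out single libraries gave 2031 to 3774 genes called with adult platelets over control (1114 to 2011 higher, 917 to 1763 lower), lowest without control replicate 2 and 2207 without control replicate 3. It gave 3 to 5 of the 10 (1 to 2 higher), and 13 to 25 pathway genes (4 to 8 higher, 8 to 18 lower). Between P7 and adult platelets it gave 5 to 8 of the 10 (2 to 4 higher), lowest without P7 platelet replicate 2. Values near 0 turned sign. Cpt2 with P7 platelets ranged from -0.0894 to 0.0010 without single libraries, and with adult platelets from -0.0174 to 0.0522, with -0.0079 under upper-quartile scaling. Acadvl between P7 and adult platelets, at -0.00054, was 0.0121 with DESeq2 size factors, 0.0122 with the DESeq2 Wald test, 0.0058 with a mean of at least 50 counts, 0.0047 with limma-voom, 0.0032 with the replicate block, 0.0205 with the Igkc term and -0.0412 to 0.0908 without single libraries. The reads carry no molecular identifiers, and 3 libraries a group limit what small differences can be called.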

Other observations

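The genes whose log2 CPM followed a member most closely over the 9 libraries, which fall into 3 separate groups, are given as a description. For Lpl they were Mitf, Stap1 and Zbp1 (Pearson r = 0.99 each), for Fabp4 Lamp2, Ric1 and Gclc (0.99 each), and for Fabp5 Litaf, Dok2 and Smox (0.99 each). For Cpt1a they were Cnr2, Tbc1d2 and Eid1, and for Acadm Inpp5k, Tex261 and Limk2 (0.99 to 1.0). For Plin2 the closest were Dusp6, Sephs2 and Cers2 (0.98, 0.97 and 0.96), for Pnpla2 Zfp12, Tonsl and Fam98c (0.99 each), for Pparg Btg2, Pex13 and Cd300e (0.98, 0.96 and 0.96) and for Acadvl Dpm2, Dhps and Chmp1a (0.98, 0.98 and 0.97). Cpt2 had lower values, for Dgcr8, Dtymk and Zscan12 (0.91, 0.88 and 0.86).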
